A study of Mus musculus with 10 samples.

Results

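The genes described here are 8 mouse genes that load or carry antigen on MHC class II: H2-Aa, H2-Ab1, H2-Eb1, H2-DMa, H2-DMb1, H2-Oa, Cd74 and Ciita. They were chosen by their role and selected on their average log fold changes in the cluster marker table of the ascites cells, so those values are a description and support no test. All 8 have an entry among the 1596 distinct genes of that marker table, and all 8 have a bin among the 18475 gene labels of the tumor copy ratio tables. All tumors arose in C57BL/6 mice after in vivo electroporation, which brought plasmids that carry Cas9, a guide RNA and Cre to the epithelium of the fallopian tube. DNA of 8 fixed ovarian tumors was sequenced across the genome at low coverage, and of these 5 are labelled deleted and 3 intact for Lkb1, a kinase also called Stk11. PAX8, a marker of the fallopian tube epithelium, is labelled positive in Lkb1-deleted tumors 1 and 4 and Lkb1-intact tumors 2 and 3, and negative in the other 4. Single-cell RNA sequencing was made once, from the ascites cells of 1 Lkb1-deleted mouse after red cells were removed, and the number in its label is that of Lkb1-deleted tumor 1. The sources used here give no ages.

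MHC class II molecules are pairs of an alpha and a beta chain that show peptides from engulfed material to CD4 T cells. The invariant chain, encoded by Cd74, holds the groove closed until the chain is cut down in endosomes, where H2-DM exchanges the last fragment for peptide and H2-O restrains H2-DM. Ciita is the coactivator that switches these genes on, and it works through factors bound to an X box and a Y box in their promoters. Dendritic cells, B cells and activated macrophages are the usual carriers. C57BL/6 mice make the I-A pair from H2-Aa and H2-Ab1, but lack the I-E pair because their alpha chain gene for it is defective, although the beta chain gene H2-Eb1 is still transcribed.

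The promoters are shown because these genes were listed together in the same ascites clusters. The promoter search covered 5 of the 8 genes, with 6 start sites in the RefSeq promoter table of GRCm38.p6. Each window ran from 250 bases before to 50 after the start. H2-Ab1, Ciita and Cd74 were not searched, so the counts given here do not cover them. The Y box core was searched as CCAAT on either strand and the X box core as GNNACNG on either strand. CCAAT stood in 5 of the 6 windows and in 37.4% of all 32851 windows, and GNNACNG in 4 of 6 and in 88.5% of all. Both within 40 bases of each other were found in 3 of 6 windows, those of H2-Oa, H2-DMb1 and H2-Eb1, and in 17.1% of all. A second form was chosen after the sequences were seen: GNAAC followed within 40 bases by ATTGG, the other strand of CCAAT, on the strand of the gene. It stood in 4 of 6 windows and in 2.65% of all. A match of letters is no proof of a bound site. The stretches that hold it are given 5′ to 3′, with GNAAC and ATTGG in capitals.
H2-Aa, chr17:34287852-34287919, minus strand: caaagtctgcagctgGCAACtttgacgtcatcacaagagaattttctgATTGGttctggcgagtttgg
H2-Eb1, chr17:34305761-34305827, plus strand: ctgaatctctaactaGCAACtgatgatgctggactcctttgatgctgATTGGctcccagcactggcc
H2-DMb1, chr17:34153082-34153149, plus strand: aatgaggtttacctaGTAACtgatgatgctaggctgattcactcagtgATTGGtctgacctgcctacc
H2-Oa, chr17:34092288-34092355, plus strand: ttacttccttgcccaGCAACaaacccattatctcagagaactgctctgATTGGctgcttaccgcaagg
From the first base of the one to the first base of the other, the distance was 33 bases in H2-Aa, H2-DMb1 and H2-Oa and 32 in H2-Eb1. The ATTGG began 43 to 61 bases before the start in these 4 genes. Neither window of H2-DMa held the pair.

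The class II genes had marker entries in 3 of the 9 ascites clusters, and in no other. The clusters carry the authors' names: Dividing cells (5) listed 8 of the 8 genes, B-cells (4) 7 and Macrophages (3) 6. These clusters list 7.02%, 13.5% and 4.7% of all distinct genes of the table. In the authors' deposited table the median of the listed class II genes was 2.04 in Macrophages (3), 1.37 in Dividing cells (5) and 1.32 in B-cells (4), beside medians over all markers of 0.69, 0.67 and 0.89. These values are average log fold changes of a cluster against all other cells, read as natural logs, the default scale of the Seurat version that the submitters' processing notes name. The other cells of each of these clusters include those of the other 2, so a value is no level. There is 1 library and no replicate. The medians of Macrophages (3), Dividing cells (5) and B-cells (4) cover 6, 8 and 7 genes, so they are not over the same genes. Macrophages (3) had no entry for Ciita and H2-Oa, which were the lowest in Dividing cells (5), at 0.66 and 0.88. Because these values also chose the genes, the medians only describe them. The other 6 clusters, Macrophages (0), Monocytes (1), Tumor cells (2), T-cells (6), Erythrocytes (7) and CAFs (8), listed 0 of the 8 genes, while their lists make up 9.9%, 15.1%, 35.8%, 13.8%, 2.38% and 22.6% of the table's genes. The lowest value listed anywhere was 0.50, so a gene without an entry may still be expressed there.

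**Figure D1:**
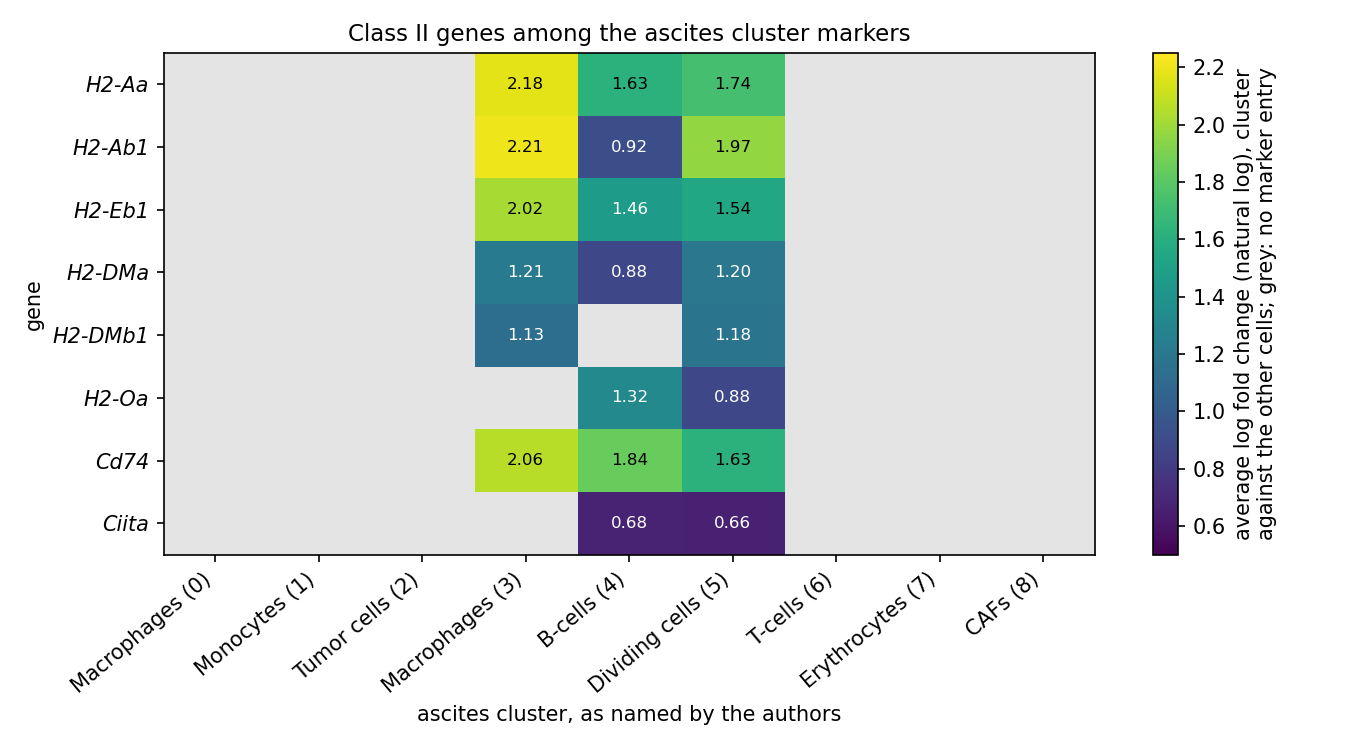
Average log fold change (natural log) of the 8 class II genes (rows) in the 9 ascites clusters (columns) of 1 library, as deposited by the authors. Grey cells have no marker entry. Entries stand in 3 columns, from 0.66 for Ciita in Dividing cells (5) to 2.21 for H2-Ab1 in Macrophages (3).

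The cluster names were set against markers of their cell types. B-cells (4) listed 12 of 12 B cell markers, led by Cd79a (3.13) and Ly6d (2.97) in the authors' deposited table. Macrophages (3) listed 0 of 12 macrophage markers, while Macrophages (0) listed 10 of them. The cells of Macrophages (0) are among those that Macrophages (3) was compared with, so the 0 does not show low levels there. Macrophages (3) listed 5 of 10 monocyte markers in the authors' deposited table. Among them were Ccr2 (1.60), the receptor that brings monocytes into tissue, and Ms4a4c (1.34). Other monocyte markers were listed elsewhere: Cd14 (1.46) and Ly6c2 (1.19) in Monocytes (1), and Fn1 (1.69) and F13a1 (0.93) in Macrophages (0), in the authors' deposited table. Dividing cells (5) listed 5 of 8 cycling markers, such as Stmn1 (1.48) and Birc5 (1.21), and 7 of 12 conventional dendritic cell markers, such as Naaa (1.43), Irf8 (1.20), a transcription factor, and the chemokine receptor Xcr1 (0.97), in the authors' deposited table. The dendritic cell markers Flt3, Zbtb46, Cd209a, Itgax and Ifi205 had no entry in any cluster. Cd24a, listed in Dividing cells (5) at 0.68, had higher values in Erythrocytes (7) (1.70) and Monocytes (1) (1.58) in the authors' deposited table. Irf8 is also counted below among the interferon-gamma response genes. The names Macrophages (3) and Dividing cells (5) thus do not describe all that these clusters list.

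The chains of the class II molecules led Macrophages (3). H2-Ab1, the I-A beta chain, had the highest value of its 75 markers (2.21) and H2-Aa, the I-A alpha chain, the second (2.18) in the authors' deposited table. As a ratio of the mean levels, with the constant that Seurat adds to each by default, these are 9.09 and 8.83. H2-Eb1, the I-E beta chain, had rank 4 (2.02) in the authors' deposited table. In Dividing cells (5) the order was the same, with H2-Ab1 at 1.97, H2-Aa at 1.74 and H2-Eb1 at 1.54 in the authors' deposited table, at ranks 2, 3 and 5 of 112. In B-cells (4) the order was turned: H2-Aa was at 1.63, H2-Eb1 at 1.46 and H2-Ab1 at 0.92 in the authors' deposited table, at ranks 20, 28 and 90 of 215. The difference of H2-Aa from H2-Ab1 was thus 0.71 in B-cells (4), against -0.03 in Macrophages (3) and -0.23 in Dividing cells (5). These differences come from 1 library and were not tested.

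The invariant chain went with the class II chains. Cd74 stood at 2.06 in Macrophages (3), 1.84 in B-cells (4) and 1.63 in Dividing cells (5) in the authors' deposited table. Its ranks there were 3, 15 and 4. In B-cells (4) it was the highest of the 7 listed class II genes, above H2-Aa by 0.22, and in the other clusters it lay below H2-Aa by 0.12 and 0.11.

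The peptide editors split the clusters. H2-DMa, the H2-DM alpha chain, was listed in all 3, at 1.21 in Macrophages (3), 1.20 in Dividing cells (5) and 0.88 in B-cells (4) in the authors' deposited table. H2-DMb1, a beta chain of H2-DM, was listed in Macrophages (3) (1.13) and Dividing cells (5) (1.18) and had no entry in B-cells (4). Its neighbour H2-DMb2, a second gene for the H2-DM beta chain, had the opposite pattern, with an entry in B-cells (4) alone, at 1.99 and rank 13 in the authors' deposited table. H2-DMb1 and H2-DMb2 are close copies, and the sources used here do not say how reads that match both were counted, so their split is uncertain. H2-Oa, the H2-O alpha chain, was listed in B-cells (4) at 1.32 and in Dividing cells (5) at 0.88, and had no entry in Macrophages (3). H2-Ob, the H2-O beta chain, was listed in B-cells (4) alone, at 1.16. Relative to H2-DMa, H2-Oa was higher by 0.44 in B-cells (4) and lower in Dividing cells (5), with a difference of -0.31.

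Ciita, the coactivator, had the lowest value of the listed genes in both of its clusters, B-cells (4) at 0.68 and Dividing cells (5) at 0.66 in the authors' deposited table. It had no entry in Macrophages (3), where the class II chains had their highest values.

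Of 15 other genes of the class II pathway, 6 had an entry in any cluster. Besides H2-DMb2 and H2-Ob in B-cells (4), these were proteases and a reductase of the endosome. Ctss, the protease that trims the invariant chain, was listed in Macrophages (3) (0.81) and Macrophages (0) (0.72), and Lgmn, an endosomal protease, in Macrophages (0) (0.80) and Macrophages (3) (0.58), in the authors' deposited table. Ifi30, a thiol reductase, was listed in Macrophages (3) at 0.56 and Ctsl, a protease, in Macrophages (0) at 0.58. Macrophages (0) therefore listed 3 of these 15 genes and 0 of the 8 described here. Rfx5, Rfxap and Rfxank, which encode the X box factor, had no entry in any cluster. Of 8 genes of costimulation and dendritic maturation, B-cells (4) listed Ccr7 (0.72) and Cd83 (0.59), T-cells (6) Ccr7 (0.55) and CAFs (8) Fscn1 (1.09). Macrophages (3) and Dividing cells (5) listed 0 of them. Of 18 interferon-gamma response genes, Dividing cells (5) listed 4 (Irf8, Psmb8, Psmb9 and Tap1), T-cells (6) 2 (Socs1 and Psmb8), Macrophages (3) 1 (Psmb8, 0.52), Tumor cells (2) 1 (Gbp2), CAFs (8) 1 (Cxcl10) and B-cells (4) 0. Of 12 class I presentation genes, 3 were listed in Dividing cells (5), namely Psmb8 (0.73), Psmb9 (0.65) and Tap1 (0.53), which lie between H2-DMb1 and H2-Ab1 on chromosome 17. Macrophages (0) listed 2 of them, H2-K1 (0.60) and B2m (0.54), and Macrophages (3) and T-cells (6) 1 each, Psmb8.

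The gene whose entries were most like those of the class II genes was Napsa, an aspartic protease. Likeness was measured as the cosine between a gene's listed values over the 9 clusters and the mean of the 8 genes, with a missing entry as 0, over 302 genes listed in at least 2 clusters. Napsa had a cosine of 0.968, with entries in the same 3 clusters and in no other (0.98 in Macrophages (3), 1.12 in B-cells (4) and 0.72 in Dividing cells (5) in the authors' deposited table). The next were Ifi211 (0.868), Plbd1 (0.843), Rnase6 (0.835) and Plac8 (0.810), each listed in Macrophages (3) and Dividing cells (5). Btla (0.788) followed, listed in B-cells (4) and Dividing cells (5), and then Hspa8 (0.772), H2afz (0.737), Psmb8 (0.690) and Tmsb10 (0.660). Among the 8 genes themselves the cosine with their own mean ran from 0.753 for H2-Oa to 0.999 for H2-DMa. Macrophages (3), B-cells (4) and Dividing cells (5) share 7 markers in all, of which 5 are H2-Aa, H2-Ab1, H2-Eb1, H2-DMa and Cd74 and the other two Napsa and Tmsb10.

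**Figure D2:**
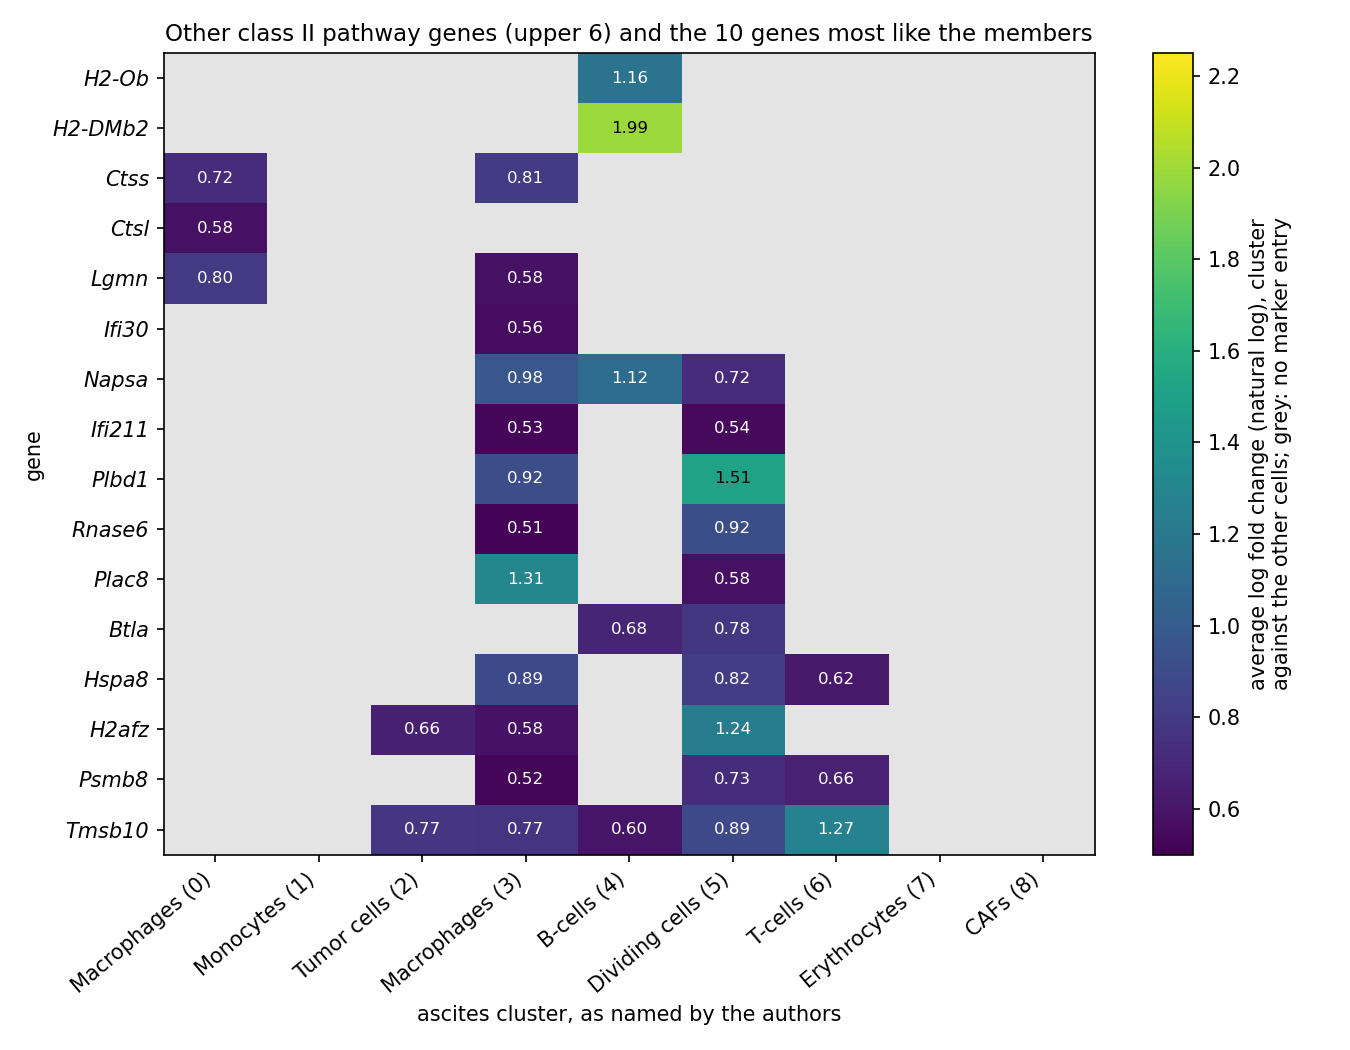
Average log fold change (natural log) of the 6 listed genes among 15 other class II pathway genes and, under them, of the 10 genes with the highest cosine to the class II genes, in the 9 ascites clusters of 1 library, as deposited by the authors. Grey cells have no entry. H2-DMb2 (1.99) and H2-Ob (1.16) stand in the B-cells (4) column alone, and Napsa has entries in the 3 class II clusters.

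On chromosome 17 the authors called copy number regions in the ascites cells from the RNA, and 6 of the 8 genes lie in 2 of them. In the cell group named malignant_2 a region from 33915899 to 48312534 with 107 genes has state 2. In the cell group named normal_5 a region from 31647082 to 35704621 with 74 genes has state 4. The state that stands for no change does not occur in the file and was read as 3, so the first would be a loss and the second a gain; the file headers do not say so. The numbers of these groups are those of Tumor cells (2) and Dividing cells (5), a link that the headers do not state either. The region of normal_5 held 10 markers of Dividing cells (5), 13.5% of its genes, and 6 of these 10 were H2-Aa, H2-Ab1, H2-Eb1, H2-DMa, H2-DMb1 and H2-Oa. The other 4 were Psmb8, Psmb9, Tap1 and Lsm2. A gene can be a marker of several clusters, and the same region held 9 markers of B-cells (4), 12.2%, and 8 of Macrophages (3), 10.8%. The region of malignant_2 held 5 markers of Tumor cells (2), 4.67% of its genes, and these were Cd2ap, Ddah2, Ddr1, Hsp90ab1 and Tubb5. It held more markers of Dividing cells (5), 11 or 10.3%, and of Macrophages (3) and B-cells (4), 8 or 7.48% each. The regions of malignant_2 with a state under 3 held 3.25% markers of Tumor cells (2), and those above 3 held 15.1%. The part of the markers in these calls was not tested.

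The positions that the deposited gene table gives for these genes are not theirs. H2-Aa is listed at 34263209 to 34269418, where RefSeq places H2-Ab1, and H2-Eb1 at 34282744 to 34287827, where RefSeq places H2-Aa. H2-Ab1 is listed at the position of Tap2, H2-DMb1 at that of H2-DMb2 and H2-Oa at that of Rxrb. Of the 6 genes only H2-DMa overlapped its RefSeq position. Among all entries of the deposited gene table, over all chromosomes, 1370 of 1455 had no overlap with their gene, 69 overlapped and 16 were not matched on the chromosome. In the region of malignant_2 all 105 matched genes start further along the chromosome in RefSeq than listed, by a median of 24.8 kb. By RefSeq, the genes named for that region run from 33916176 to 48326511, so the class II genes lie inside it by either reading.

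The same stretches were then read in tumor DNA. The log2 copy ratio is the authors' value per bin, and the sources used here do not name its reference. Over the 415 bins of the malignant_2 region, Lkb1-deleted tumor 1, whose number the ascites label carries, had a median log2 ratio of 0.29. Lkb1-deleted tumor 4 was at 0.42, and the other tumors lay between -0.11 (Lkb1-intact tumor 2) and 0.18 (Lkb1-deleted tumor 5). Read as a loss, state 2 was thus opposite in sign to the DNA of Lkb1-deleted tumor 1. Another malignant_2 region of chromosome 17, from 4994332 to 13018119, has state 4 and holds 0 of the 8 genes. There Lkb1-deleted tumor 1 had a median of 0.25, the same sign as a gain. Over the 168 bins of the normal_5 region Lkb1-deleted tumor 1 was at 0.27 and tumor 4 at 0.46. The other tumors lay between -0.23 (Lkb1-intact tumor 2) and 0.10 (Lkb1-intact tumor 3). State 4 was called in a cell group named normal, so tumor DNA is no measure of it. For all of chromosome 17 Lkb1-deleted tumor 1 was also at 0.29. Taken by the named genes instead of the listed positions, the medians in Lkb1-deleted tumor 1 were 0.29 and 0.27.

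**Figure D3:**
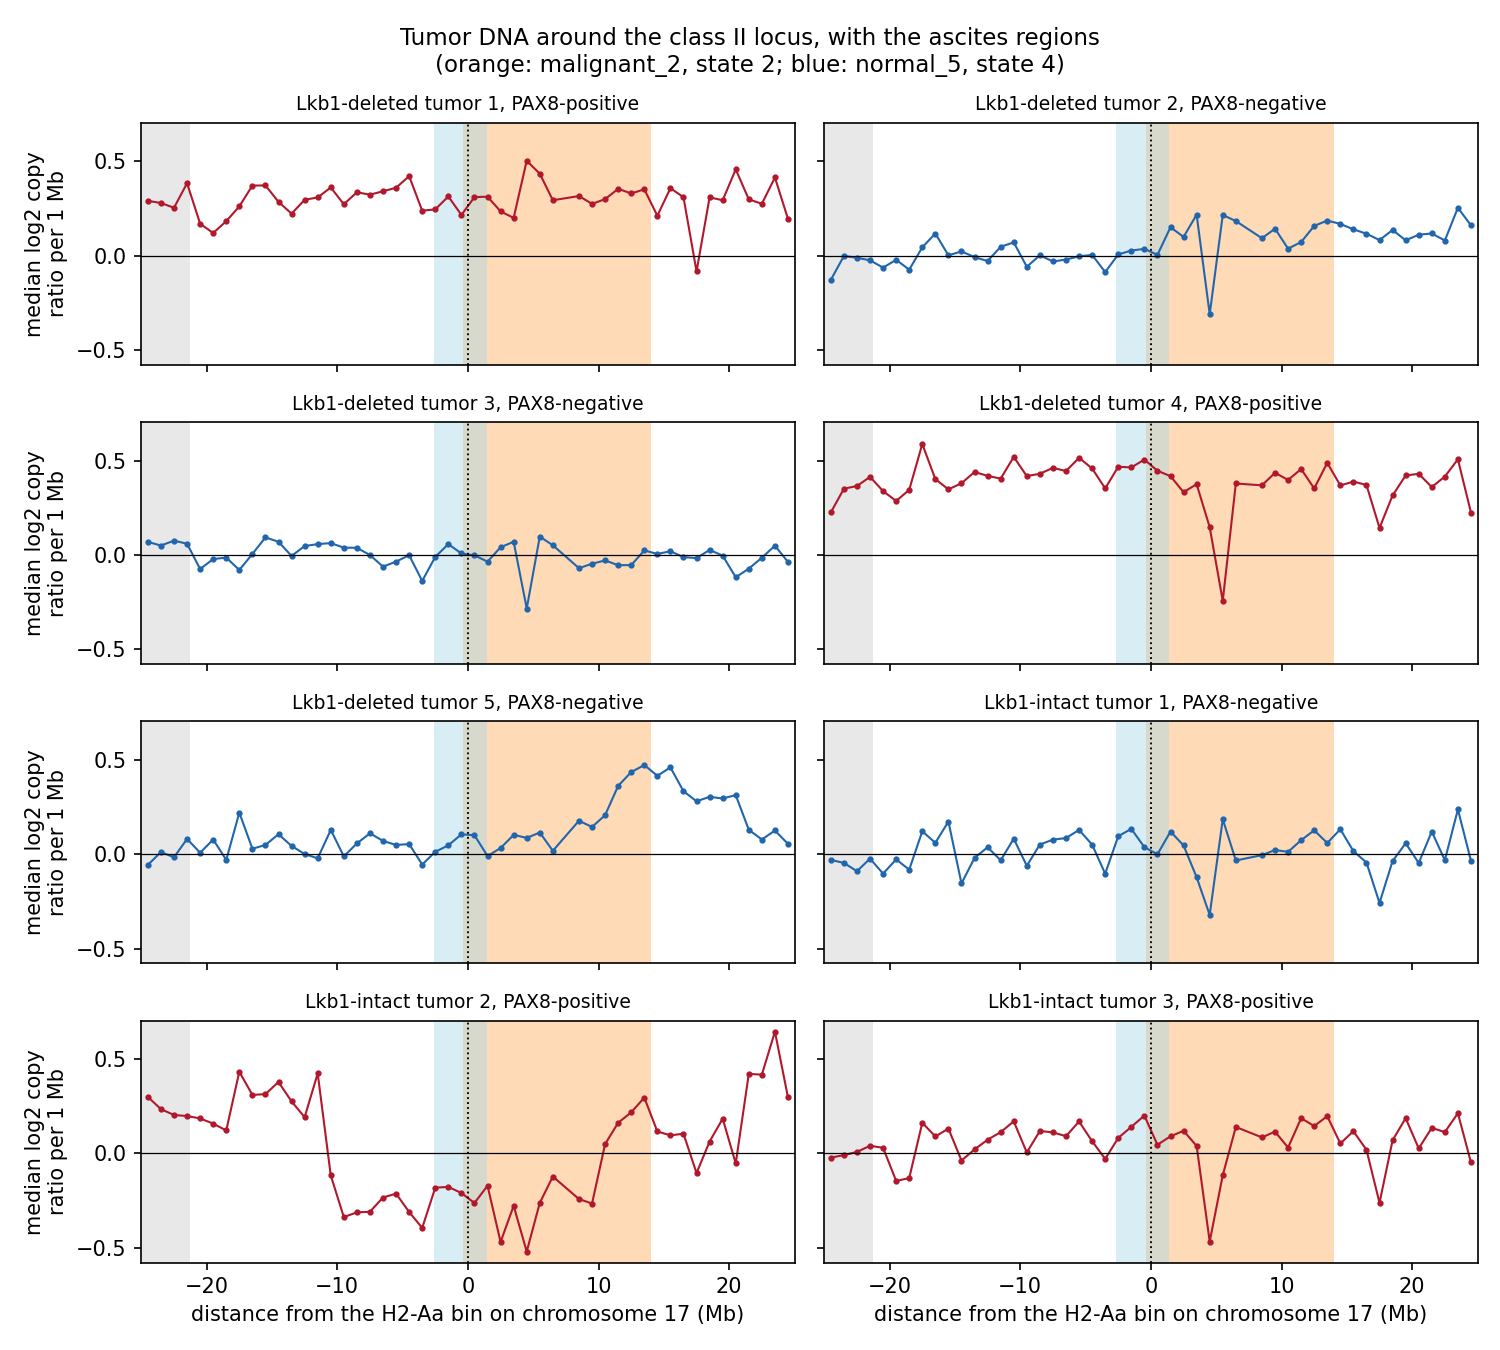
Median log2 copy ratio per 1 Mb of chromosome 17 (vertical axis) against the distance from the H2-Aa bin in Mb (horizontal axis), 1 panel per tumor, red for PAX8-positive and blue for PAX8-negative. Shading marks the ascites regions (orange malignant_2, state 2; blue normal_5, state 4; grey malignant_2, state 4). Within 1 Mb of the class II locus, Lkb1-deleted tumors 1 and 4 have medians of 0.31 and 0.48, and Lkb1-intact tumor 2 one of -0.23.

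The class II locus, taken as the 11 bins from H2-Oa to H2-Eb1 on chromosome 17 (34092340 to 34316674 in GRCm38), differed widely between tumors. Its median log2 ratio was 0.12 in Lkb1-deleted tumor 1, -0.12 in tumor 2, -0.02 in tumor 3, 0.54 in tumor 4 and 0.12 in tumor 5. In Lkb1-intact tumors it was -0.22 in tumor 1, -0.28 in tumor 2 and 0.13 in tumor 3. Lkb1-deleted tumor 4 was the highest, and the Lkb1 groups overlapped. The bins within 1 Mb on either side had medians of 0.48 in Lkb1-deleted tumor 4, 0.31 in Lkb1-deleted tumor 1, -0.23 in Lkb1-intact tumor 2 and 0.03 in Lkb1-intact tumor 1. By Lkb1 the mean at the locus was 0.13 ± 0.25 (SD, n = 5) where it was deleted and -0.13 ± 0.22 (SD, n = 3) where it was intact, a difference of 0.25 (exact two-sided permutation p = 0.214). By PAX8 it was 0.13 ± 0.34 (SD, n = 4) in positive and -0.06 ± 0.15 (SD, n = 4) in negative tumors, a difference of 0.18 (exact two-sided permutation p = 0.4). Adjusted over these 2 comparisons by the Benjamini-Hochberg method both are 0.4. Without Lkb1-deleted tumor 4 the differences were 0.15 and 0.05, and without Lkb1-intact tumor 2 the difference by PAX8 was 0.32. Some tumors have titles that end in the same 4 digits, whose meaning the labels do not give. Compared only within such tumors, which leaves 5 tumors for each label, the difference was -0.00477 by Lkb1 (exact permutation p = 1) and 0.25 by PAX8 (exact permutation p = 0.333, the smallest possible there). The Lkb1 comparison left out Lkb1-deleted tumors 4 and 5 and Lkb1-intact tumor 2, among them the highest (0.54) and the lowest (-0.28) value. The PAX8 comparison left out Lkb1-intact tumors 1 (-0.22) and 2 (-0.28) and Lkb1-deleted tumor 2 (-0.12). The lowest value, that of the PAX8-positive Lkb1-intact tumor 2, was thus not in it. Both comparisons were chosen after the data were seen and cannot be set against the differences over all tumors.

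Values of single genes rest on few bins. The 6 genes of chromosome 17 and Cd74 have 1 bin each, of 2894 to 27078 bp, and Ciita has 3, which it shares with Dexi. The H2-DMa bin also covers Brd2. Mean depth over all bins ran from 1.25 to 2.24 per tumor, and bins of 2 to 12 kb had a noise SD of 0.27 to 0.39 on the log2 scale, above the threshold of 0.2 used here for a gain or a loss. H2-Ab1 read 0.67 in Lkb1-deleted tumor 4, 0.24 in tumor 3, -0.04 in tumor 5, -0.06 in tumor 1 and -0.28 in tumor 2, and -0.42, -0.34 and 0.02 in Lkb1-intact tumors 1, 2 and 3. H2-Aa read 0.01, -0.53, -0.16, -0.03 and 0.07 in Lkb1-deleted tumors 1 to 5, and -0.15, -1.32 and -0.20 in Lkb1-intact tumors 1 to 3. Lkb1-intact tumor 2 was thus the lowest at H2-Aa. In the same tumor the next bins, H2-Eb1 (-0.80) and H2-Eb2 (-0.79), a beta chain gene beside it, were also low, while H2-Ab1 on the other side read -0.34. H2-Oa, in the shortest bin, had its lowest value (-0.86) in Lkb1-deleted tumor 1 and its highest (0.60) in Lkb1-deleted tumor 5. H2-DMa, H2-DMb1 and H2-Eb1 were all highest in Lkb1-deleted tumor 4, at 0.49, 0.55 and 0.39. Their lowest values were -0.30 and -0.27 in Lkb1-intact tumor 1 for the H2-DM chains and -0.80 in Lkb1-intact tumor 2 for H2-Eb1.

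Away from chromosome 17, Cd74 lies on chromosome 18 (60803849 to 60812652) and Ciita on chromosome 16 (10480014 to 10531064). Cd74 read -0.38, -0.26, -0.48, -0.23 and -0.02 in Lkb1-deleted tumors 1 to 5, and -0.43, 0.29 and 0.07 in Lkb1-intact tumors 1 to 3. Around Cd74, Lkb1-deleted tumor 1 had a median of -0.59 over the bins less than 1 Mb away, and Lkb1-deleted tumor 3 one of -0.01, so the low value of Cd74 was shared by its neighbours in the first and not in the second. Ciita read -0.04, -0.16, 0.11, 0.28 and -0.25 in Lkb1-deleted tumors 1 to 5, and 0.06, 0.40 and 0.31 in Lkb1-intact tumors 1 to 3. It was the highest in Lkb1-intact tumor 2, where the bins around it also had a median of 0.30.

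No class II gene differed between tumor groups after adjustment. By Lkb1 0 of the 8 genes passed at an adjusted p under 0.05 (exact two-sided permutation, Benjamini-Hochberg over 18331 labels), where 0% of all labels did, and 0 had an unadjusted p under 0.05, against 5.5% of all labels. By PAX8 the counts were 0 and 0, against 0% and 3.7% of all labels. With 56 splits by Lkb1 and 70 by PAX8 the smallest exact p is 0.0357 and 0.0286, and no single gene can pass the adjustment. With limma 0 of the 8 genes passed by either label, where 0.0273% of labels passed by Lkb1 and 0% by PAX8, and 0 had an unadjusted p under 0.05, against 6.58% and 6.74%. The median difference of the 8 genes was 0.30 by Lkb1 (deleted minus intact, 6 higher and 2 lower) beside -0.01 over all labels, and 0.21 by PAX8 (positive minus negative, 6 higher and 2 lower) beside -0.03. Without Lkb1-deleted tumor 4 these medians were 0.17 by Lkb1 and 0.05 by PAX8, the latter with 4 higher and 4 lower, and without Lkb1-intact tumor 2 the median by Lkb1 was 0.16. Without Lkb1-intact tumor 1 the median by PAX8 was 0.13. The 6 genes of chromosome 17 lie within the same 224 kb and are not separate observations. By Lkb1, these 6 had the higher means in deleted tumors, and Cd74 and Ciita in intact ones. The smallest exact p was that of Ciita by PAX8, at 0.24 ± 0.19 (SD, n = 4) in positive and -0.06 ± 0.17 (SD, n = 4) in negative tumors (exact permutation p = 0.0857, Benjamini-Hochberg adjusted 0.751). H2-Eb1 by Lkb1 was at -0.01 ± 0.30 (SD, n = 5) against -0.44 ± 0.31 (SD, n = 3), with an exact permutation p of 0.143 (Benjamini-Hochberg adjusted 0.794). Without Lkb1-intact tumor 2 that difference went from 0.43 to 0.25 (exact permutation p = 0.381).

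Counted by tumor, Lkb1-deleted tumor 4 had 5 of the 8 genes above 0.2, where 26.5% of all labels were, and 1 below -0.2, where 32.6% were. Lkb1-intact tumor 1 had 6 of 8 below -0.2, beside 25% of all labels and 35.3% of labels with 1 bin, and 0 above, beside 18.8%. Lkb1-intact tumor 2 also had 6 below, beside 35.3% of all labels, and 2 above, beside 22.6%. Lkb1-deleted tumor 1 had 0 above (21.9% of all labels) and 2 below (34.6%). In Lkb1-deleted tumor 2, 1 was above (14.7%) and 3 below (22.7%, and 30.7% of labels with 1 bin). Lkb1-deleted tumor 3 had 1 above (13.5%) and 3 below (13.1%, and 20.0% of labels with 1 bin). In Lkb1-deleted tumor 5, 1 was above (12.9%) and 1 below (17.5%). Lkb1-intact tumor 3 had 2 above (25.3%) and 3 below (25.2%). The shares lay on both sides of the background. Of 64 pairs of gene and tumor, 12 were above and 25 below. No share of all labels pooled over the tumors was computed, so these counts can show no excess of gains or losses. In every tumor, labels with 1 bin passed either threshold more often than all labels did, and of the 8 genes only Ciita has more bins. The 6 genes of chromosome 17 lie at the same locus, so the pairs are not separate observations. With the median of the 1 Mb window around each gene in place of its own bins, 9 were above and 7 below. These 6 genes have the same window value in each tumor.

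**Figure D4:**
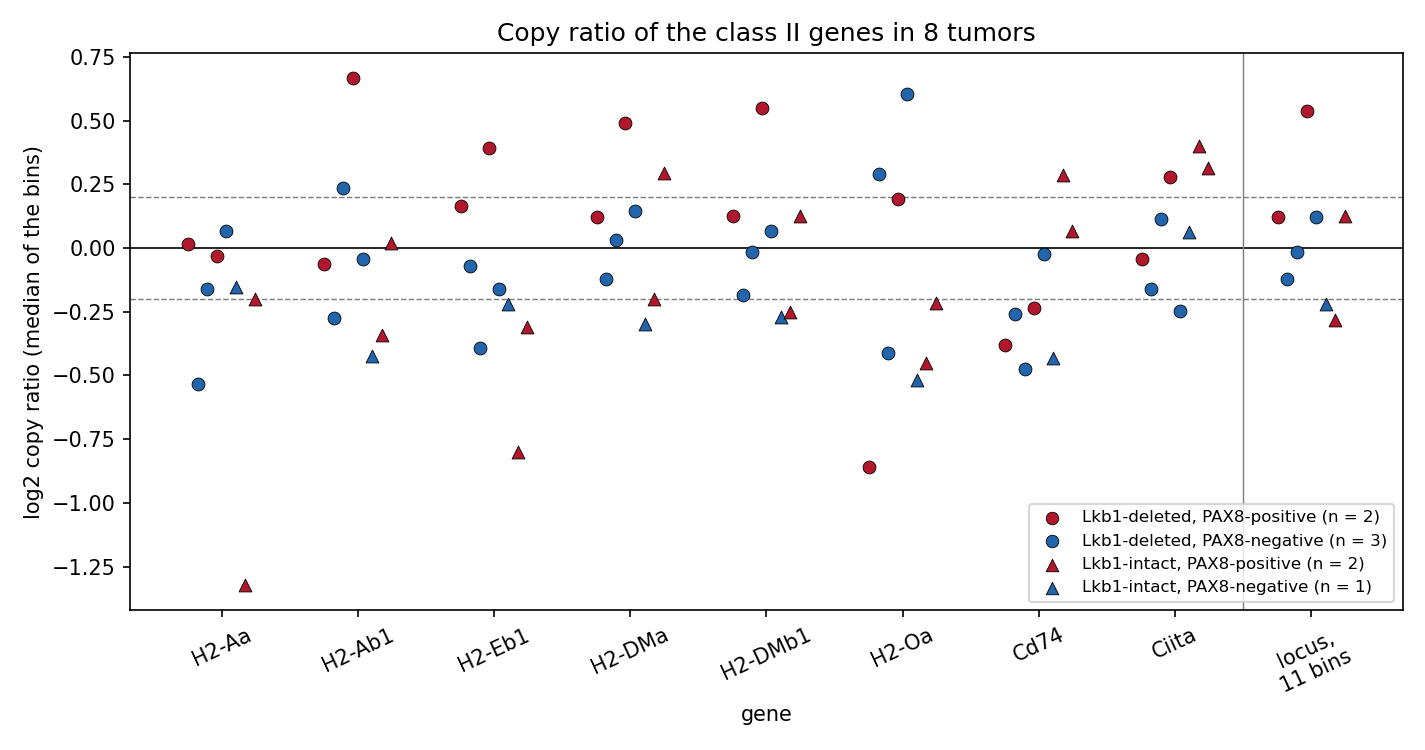
Log2 copy ratio of the 8 class II genes and of the 11-bin locus (horizontal axis) in each of 8 tumors, circles for Lkb1-deleted and triangles for Lkb1-intact, red for PAX8-positive and blue for PAX8-negative. Dashed lines stand at 0.2 and -0.2. The groups overlap at every gene, and the lowest point is H2-Aa in Lkb1-intact tumor 2 (-1.32).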

How the data were processed

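The authors deposited a log2 copy ratio and a read depth (a coverage signal) for each of 59640 bins in 8 tumors, and a bin weight, a score not used here. For the ascites library the authors deposited cluster markers with an average log fold change, taken to be on the natural log scale, and with p-values over cells, not used as tests here, and copy number regions with a state score. BWA, Picard, Cell Ranger, Seurat 2.3.4 and GRCm38 are named in the submitters' processing notes. The normal tissue library was not analysed here. The sources used here do not say how doublets were handled.

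Bins of depth 0 were left out. Genes with several bins were given the median. Differences of group means were tested by exact two-sided permutation (2 times the smaller tail) and adjusted over all labels with a value in every tumor. Limma 3.58.1 in R 4.3.3 was an alternative. The functions were tested on simulated data. The noise SD comes from differences of neighbouring bins. Tumors have no order within a group and are numbered by accession, and p-values measure the spread between these tumors. The genes, lists and tests were chosen with earlier results of these data known. Named were the 8 genes, the listed genes of the class II pathway, examples of other lists and the 10 genes of highest cosine. Tables were handled with pandas 2.3.3 and numpy 2.4.6 under Python 3.11.15, and plots drawn with matplotlib 3.10.9.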

Additional observations from a re-analysis of the deposited data

Results flagged for a closer look

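A value far from the rest of its group was looked for in 27 checks and found in 1. Chance can give such a number, at a rate that was not computed. The checks took each gene and the locus in the Lkb1-deleted, the PAX8-positive and the PAX8-negative tumors. These groups overlap, and the Lkb1-intact tumors were not checked as a group. H2-Aa read -1.32 in Lkb1-intact tumor 2, where the nearest of the other PAX8-positive tumors read -0.20. The neighbouring bins of H2-Eb1 and H2-Eb2 on one side read -0.80 and -0.79 in that tumor, that of H2-Ab1 on the other side -0.34, those within 1 Mb of the locus had a median of -0.23, and short bins had a noise SD of 0.37.

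H2-Eb1 had opposite orders by PAX8 in the Lkb1 groups, a difference that was not tested. Among Lkb1-deleted tumors the PAX8-positive ones were higher, by 0.49 in the mean (0.17 and 0.39 against -0.07, -0.39 and -0.16). Among Lkb1-intact tumors the positive ones were lower, with a difference of -0.33 (-0.80 and -0.31 against -0.22).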

How the results depend on the processing

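Leaving out each tumor moved the locus difference between 0.15 and 0.38 by Lkb1 (exact permutation p 0.0952 to 0.571) and between 0.05 and 0.32 by PAX8 (exact permutation p 0.0571 to 0.8). With fewer tumors no gene can pass the adjusted threshold, so its count of 0 says nothing about stability. By PAX8, 5 genes changed sign, and the cause was not tested. H2-Eb1 turned to -0.03 without Lkb1-deleted tumor 1 and to -0.10 without Lkb1-deleted tumor 4, H2-Ab1 to -0.00183 without Lkb1-deleted tumor 4, and H2-Aa to 0.12 without Lkb1-intact tumor 2. Over all tumors left out in turn, H2-Aa ran from -0.32 to 0.12, H2-Ab1 from -0.00183 to 0.33 and H2-Eb1 from -0.10 to 0.29. In 1 Mb windows H2-Aa turned to 0.0946, H2-Oa to 0.0946 and Cd74 to -0.0704. Pairs of gene and tumor above the threshold numbered 19 at 0.1 and 7 at 0.3, and pairs below it 14 at 0.3 and 7 in 1 Mb windows, where 9 were above. The shares of all labels at these settings were not computed, and the 6 genes of chromosome 17 are not separate observations. At a log fold change of at least 1, B-cells (4) kept 4 entries. With the Jaccard index 9 of the 10 most like genes were the same. The test on genes of at least 4 bins could not be made because no class II gene has so many. No paired analysis was possible because the labels give no replicate numbers. Within tumors whose titles end alike the locus difference by Lkb1 turned to -0.00477, an alternative chosen after the data were seen. That alternative left out the tumors with the highest and the lowest locus value, Lkb1-deleted tumor 4 and Lkb1-intact tumor 2, and also Lkb1-deleted tumor 5. The mean in place of the median of bins cannot change genes with 1 bin. At a depth of 1.25 to 2.24, single bins are noisy.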
